A study of Mus musculus with 9 samples.

Results

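Receptors and signalling adaptors through which microglia, the resident macrophages of the brain, sense their surroundings were followed in the striatum of toxin-treated mice. The set held 10 genes chosen by name as a functional group, with earlier results of these data known: Tyrobp, Fcer1g, Trem2, Fcgr3, Fcrls, Csf1r, Cx3cr1, Cd14, Ly86 and Aif1. Every probe set whose single annotated gene symbol was 1 of these was taken, which gave 14 of the 22690 probe sets on the array. Each probe set holds several short oligonucleotides designed for a transcript, whose brightness is condensed into a single signal. Those with _s_at in their name, 1 each for Trem2, Csf1r and Aif1, can match more than 1 transcript. Csf1r had 3 probe sets, Trem2 and Cx3cr1 had 2 each, and the other genes had 1. Of the 14, 12 probe sets of 9 genes had a mean log2 signal at or above the 40th percentile (corresponding to a signal of 741) and entered the tests, which covered 13614 probe sets. The 2 Trem2 probe sets lay below it.

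Striatal RNA came from 9 male C57BL/6J mice aged 56 days, with 1 array per mouse and both striata named as the source. In the METH group 3 mice were injected with methamphetamine, in the MPTP group 3 mice were injected with MPTP, and in the Control group 3 mice were injected with saline. Both toxins served as mouse models of Parkinson's disease. Methamphetamine releases dopamine and damages dopamine terminals at high doses, and MPTP is converted in the brain into a toxin that dopamine neurons take up. All mice shared strain, sex and age, and the dose, the schedule and the interval before dissection are not stated in the labels.

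Tyrobp, also called DAP12, and the Fc receptor gamma chain encoded by Fcer1g are short transmembrane adaptors that carry an immunoreceptor tyrosine-based activation motif (ITAM). Receptors with little signalling capacity of their own, such as Trem2 and the activating Fc gamma receptors, pair with them, and the paired receptor recruits the kinase Syk. Csf1r, the receptor for Csf1 and Il34, is needed for the survival of microglia, and Cx3cr1 receives the neuronal chemokine Cx3cl1. Cd14 hands lipopolysaccharide to Tlr4, Ly86 (MD-1) is the partner of the Tlr4 relative Cd180 (RP105), and Aif1 (Iba1) is an actin-binding protein widely used to stain microglia.

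Promoter windows of these genes, from 250 bases before to 50 after the transcription start, were found for 7 of the 10 in RefSeq (build GRCm38.p6). Tyrobp, Csf1r and Cd14 had none in that table. Windows were searched on both strands for the PU box GAGGAA, the core to which the myeloid factor PU.1 (Spi1) binds. It was present in the windows of 4 of the 7 genes, Trem2, Fcgr3, Fcrls and Aif1, and in 28.3% of all 32851 windows of that length. The TATA box TATAAA was found in 1 of the 7, Fcrls, and in 13.6% of all windows. Counted from the start, the PU box began at position -40 in Trem2, -7 in Aif1 and -144 in Fcrls, and at -6 in the Fcgr3 window shown, 1 of 2 for that gene. A match describes these letters and is not evidence of binding. The 4 windows are shown because they belong to the gene with the smallest p-values against saline (Fcrls), to the pair whose values differed most between the toxins past the filter (Fcgr3 and Aif1), and to the gene with the largest negative value in MPTP mice (Trem2). Sequences run 5′ to 3′ on the gene's strand, with the PU box or its reverse complement TTCCTC in capitals. The windows are chr3:87263475-87263774 on the minus strand for Fcrls, chr1:171059354-171059653 on the minus strand for Fcgr3, chr17:35176003-35176302 on the minus strand for Aif1 and chr17:48346151-48346450 on the plus strand for Trem2.
Fcrls: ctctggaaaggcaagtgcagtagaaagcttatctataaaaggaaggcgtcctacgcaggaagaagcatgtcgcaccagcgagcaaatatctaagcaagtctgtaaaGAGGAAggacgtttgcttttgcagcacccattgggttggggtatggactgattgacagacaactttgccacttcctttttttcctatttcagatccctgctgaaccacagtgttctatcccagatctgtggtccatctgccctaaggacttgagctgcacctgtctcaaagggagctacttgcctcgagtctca
Fcgr3: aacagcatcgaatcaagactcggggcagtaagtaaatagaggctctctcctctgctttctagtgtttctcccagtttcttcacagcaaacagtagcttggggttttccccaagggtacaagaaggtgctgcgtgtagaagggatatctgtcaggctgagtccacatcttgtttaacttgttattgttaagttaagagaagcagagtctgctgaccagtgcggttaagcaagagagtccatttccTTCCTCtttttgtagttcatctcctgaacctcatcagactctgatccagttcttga
Aif1: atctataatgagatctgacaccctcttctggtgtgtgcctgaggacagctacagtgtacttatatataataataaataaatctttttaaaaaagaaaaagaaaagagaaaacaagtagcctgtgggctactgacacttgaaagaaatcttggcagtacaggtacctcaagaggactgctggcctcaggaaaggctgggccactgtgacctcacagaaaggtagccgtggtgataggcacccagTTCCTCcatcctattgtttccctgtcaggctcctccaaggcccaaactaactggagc
Trem2: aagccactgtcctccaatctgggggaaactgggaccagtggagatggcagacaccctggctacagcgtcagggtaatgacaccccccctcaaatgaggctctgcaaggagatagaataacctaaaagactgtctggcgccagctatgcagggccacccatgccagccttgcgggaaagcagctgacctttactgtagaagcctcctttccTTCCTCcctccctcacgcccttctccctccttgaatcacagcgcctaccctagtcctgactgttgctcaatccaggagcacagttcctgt

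The arrays were alike in distribution, with Spearman correlations of 0.97 to 0.985 and a common trimmed mean of 2501. Array medians were 1127 to 1233 in METH, 1128 to 1178 in MPTP and 1111 to 1127 in Control (1127.2, 1127.5 and 1126.8 where the groups came closest). Every toxin array thus had a higher median than every saline array. The 3′ to 5′ signal ratio of Gapdh, a gauge of RNA quality, was 0.732 to 0.84 in METH, 0.785 to 0.836 in MPTP and 0.828 to 0.858 in Control. For beta-actin it was 1.08 to 1.17, 1.11 to 1.17 and 1.07 to 1.21 in METH, MPTP and Control. The ratios of pyruvate carboxylase (1.42 to 2.89, 2.16 to 2.95 and 2.46 to 3.38) and the transferrin receptor (2.25 to 2.94, 2.76 to 3.73 and 2.20 to 2.81) varied more. The part of these differences in the results below was not tested beyond the centring of arrays given with them. Gfap, the intermediate filament gene of astrocytes, was the 1 gene past the test in each toxin against saline, with both its probe sets. Those calls were not stable: without 1 array, 0 probe sets passed in 9 of 9 runs for MPTP and in 7 of 9 for METH, including each run without a METH or Control array. Striatal spiny neuron markers were bright, with summed signals over 7 genes of 172070 to 183870 in METH, 155770 to 182510 in MPTP and 175160 to 195920 in Control. The p-values rest on the spread among the 3 mice of each group.

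The 12 tested receptor and adaptor probe sets all had higher mean log2 signals in METH than in saline striatum, and likewise in MPTP striatum. However, none passed the test. The sign of Fcgr3 in METH and of Aif1, 1 Csf1r and 1 Cx3cr1 probe set in MPTP turned under another scaling of the arrays. Without the Control 2 array, Fcgr3 in METH, and Fcer1g and those Csf1r and Cx3cr1 probe sets in MPTP, also had negative values. Fcrls and Ly86 had differences of 1.28-fold to 1.44-fold with all toxin arrays above saline, and Tyrobp smaller ones. The Csf1r probe sets were unequal. In METH and MPTP, 1419873_s_at had 1.35-fold and 1.23-fold, and 1423593_a_at had 1.20-fold and 1.12-fold. The brightest, 1419872_at, had 1.07-fold and 1.03-fold with overlapping groups. Aif1 stood above saline in METH mice and Fcgr3 had its largest value in MPTP mice. Trem2 was too dim to be tested with the others. Both its probe sets had negative values in MPTP mice, and in METH mice 1 was negative and the other near 0. In striatal tissue, more microglia and more RNA per microglial cell cannot be told apart.

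**Figure D1:**
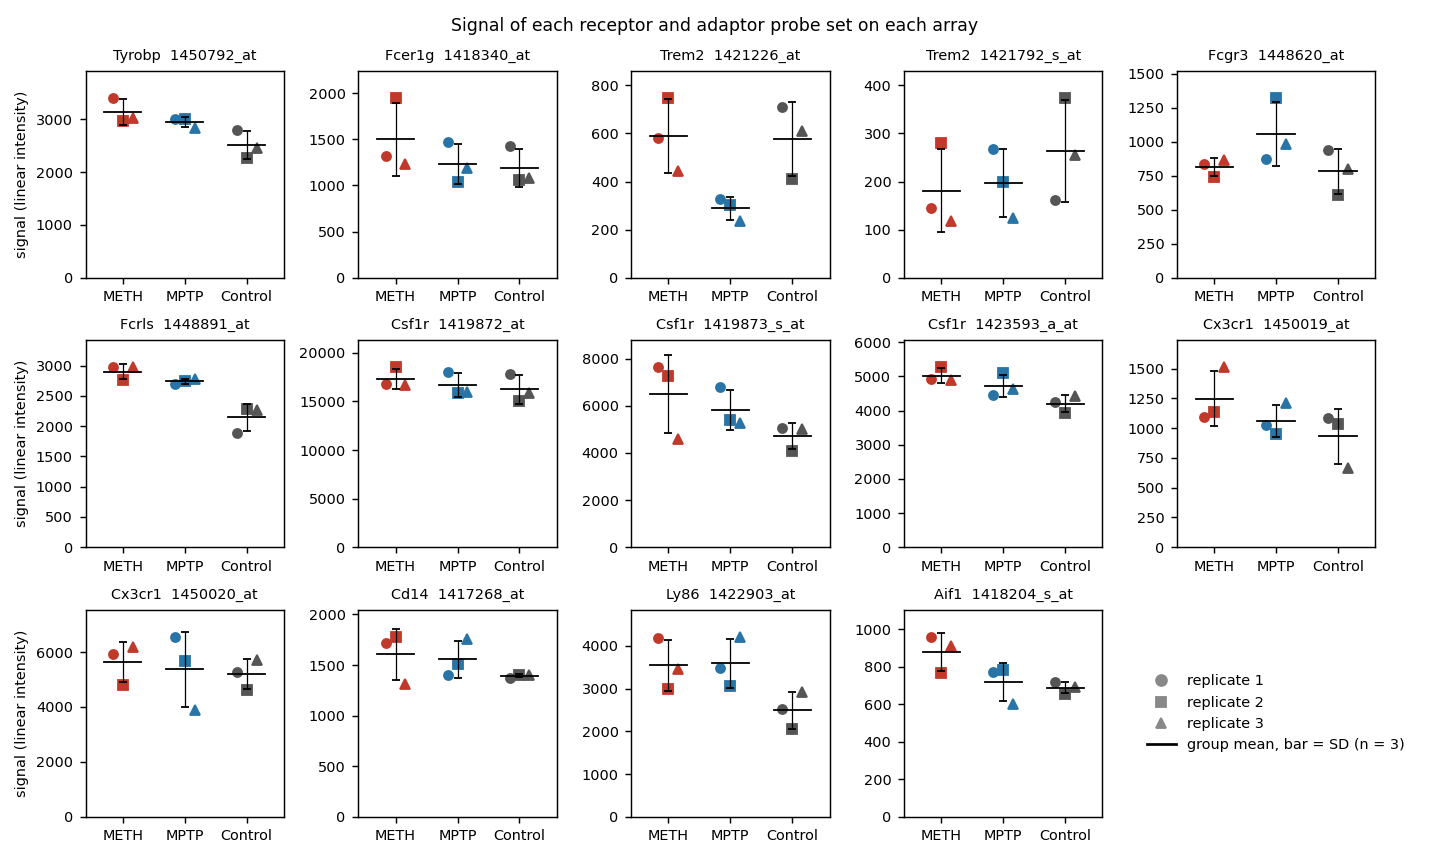
Signal of the 14 receptor and adaptor probe sets (y axis, linear intensity from 0) in METH, MPTP and Control mice, 1 symbol per array with the symbol shape giving the replicate number, the line the group mean and the bar the SD (n = 3). Fcrls, Tyrobp and Ly86 have all 6 toxin arrays above all 3 Control arrays, and Trem2 1421226_at has its 3 lowest values in MPTP.

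Tyrobp, the adaptor of Trem2 and several related receptors, had signals of 3408, 2963 and 3028 in METH 1, 2 and 3, 3012, 2999 and 2831 in MPTP 1, 2 and 3, and 2791, 2272 and 2451 in Control 1, 2 and 3. All 6 toxin arrays lay above all 3 saline arrays, although MPTP 3 and Control 1 were close. Its mean signal was 3133 ± 240 in METH, 2947 ± 101 in MPTP and 2505 ± 264 in Control (SD, n = 3 each). In METH against Control its log2 fold change was 0.33 ± 0.11 (SE; limma, adjusted p = 0.504, unadjusted p = 0.0114), and in MPTP against Control it was 0.24 ± 0.11 (adjusted p = 0.874, unadjusted p = 0.0462).

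Fcer1g, the adaptor of the activating Fc receptors, had signals of 1316, 1952 and 1233 in METH 1 to 3, 1466, 1040 and 1192 in MPTP 1 to 3, and 1424, 1059 and 1081 in Control 1 to 3. METH 2 alone stood well above the rest, and the groups overlapped in both comparisons. The log2 fold change was 0.32 ± 0.20 in METH against Control (95% interval -0.12 to 0.76) and 0.052 ± 0.20 in MPTP against Control (-0.39 to 0.49). The adaptors therefore differed in how well the groups separated, with an SD within groups of 0.11 log2 units for Tyrobp and 0.29 for Fcer1g.

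Fcrls, an Fc receptor-like molecule that in the mouse brain marks microglia, had signals of 2968, 2761 and 2973 in METH 1 to 3, 2702, 2746 and 2783 in MPTP 1 to 3, and 1885, 2288 and 2265 in Control 1 to 3. Both toxin groups lay entirely above the saline group, and the MPTP arrays lay close together. Its log2 fold change was 0.44 ± 0.10 in METH against Control (1.36-fold, limma adjusted p = 0.372, unadjusted p = 0.00137), the smallest p of the set. In MPTP against Control it was 0.36 ± 0.10 (1.28-fold, limma adjusted p = 0.772, unadjusted p = 0.0049). The 95% intervals were 0.22 to 0.66 and 0.14 to 0.58.

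Fcgr3, the low-affinity activating receptor for immunoglobulin G, had signals of 838, 744 and 865 in METH 1 to 3, 875, 1325 and 981 in MPTP 1 to 3, and 941, 612 and 801 in Control 1 to 3. The METH arrays lay within the saline range, while MPTP 2 and MPTP 3 lay above it. The log2 fold change was 0.075 ± 0.18 in METH against Control and 0.43 ± 0.18 in MPTP against Control (limma adjusted p = 0.922 and 0.874). All 3 METH arrays lay below all 3 MPTP arrays, and the log2 difference of METH against MPTP was -0.36 ± 0.18 (95% interval -0.77 to 0.051, limma adjusted p = 1).

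Trem2, a receptor for lipids and lipoproteins that signals through Tyrobp, was measured by a pair of dim probe sets. The first, 1421226_at, had signals of 579, 749 and 443 in METH 1 to 3, 328, 304 and 234 in MPTP 1 to 3, and 709.6, 409.6 and 611 in Control 1 to 3. All MPTP arrays lay below all arrays of both other groups, while METH and saline overlapped. Fitted with no filter, the log2 fold change was -0.98 ± 0.27 in MPTP against Control (0.509-fold, limma adjusted p = 0.96, unadjusted p = 0.00704) and 0.038 ± 0.27 in METH against Control (limma adjusted p = 0.979). In that fit 0% of all probe sets passed the test in MPTP against Control.

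The second Trem2 probe set, 1421792_s_at, had signals of 145, 279.8 and 118 in METH 1 to 3, 267, 199 and 125 in MPTP 1 to 3, and 162, 374 and 254 in Control 1 to 3. These overlapped in every comparison, with a log2 fold change of -0.56 ± 0.44 in METH against Control and -0.41 ± 0.44 in MPTP against Control. The probe sets of Trem2 thus differed from each other by 0.57 log2 units in MPTP against Control and by 0.60 in METH against Control. Without a filter, 4.5% of all 22690 probe sets had every MPTP array below every saline array, and 1.67% had an unadjusted p under 0.05 and a lower value. At the level of Trem2 spread is wide: the median SD within groups was 0.47 log2 units in the third decile of mean signal and 0.82 in the second, which hold the first and the second probe set, against 0.11 in the brightest.

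**Figure D2:**
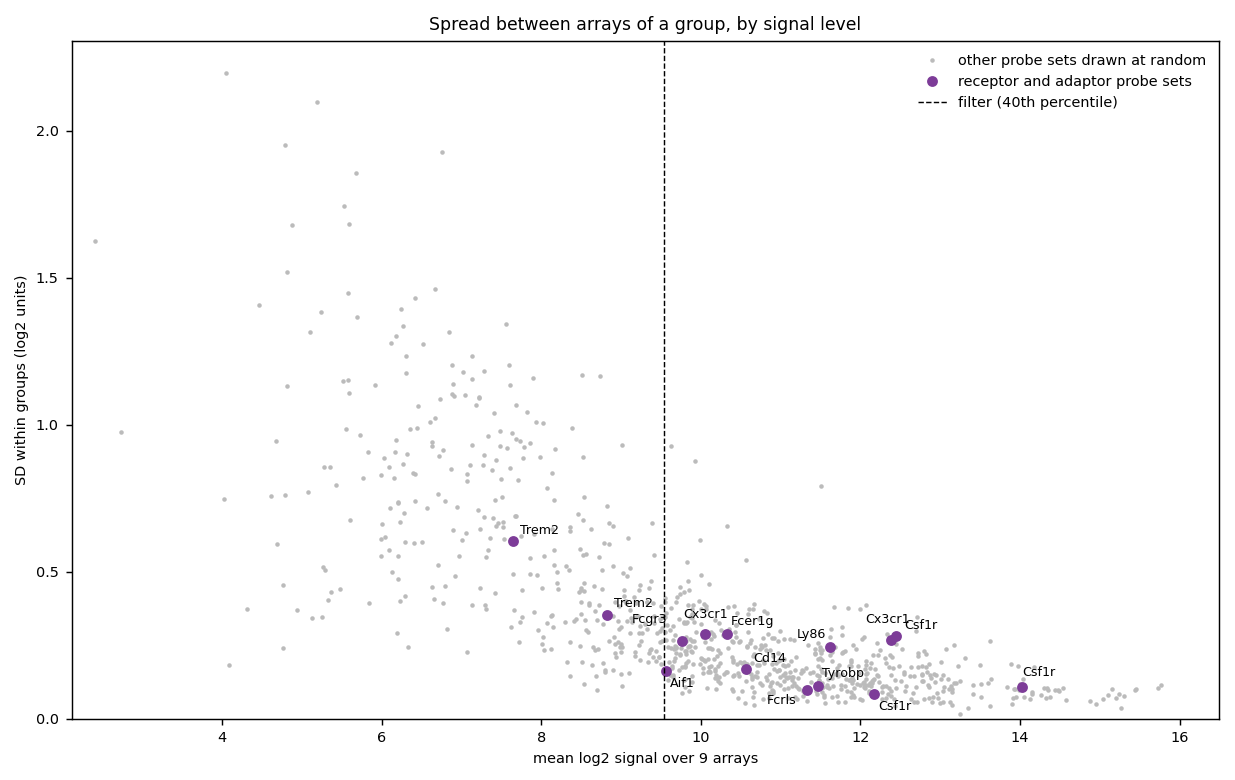
SD within groups (y axis, log2 units, from the 3 group variances) against the mean log2 signal over 9 arrays (x axis) for the 14 receptor and adaptor probe sets and for other probe sets drawn at random, with the filter as a dashed line. Spread grows as signal falls, and the Trem2 probe sets lie left of the filter with SDs of 0.35 and 0.60. Csf1r 1423593_a_at (0.084), Fcrls (0.098), Csf1r 1419872_at (0.107) and Tyrobp (0.111) are among the tightest.

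Csf1r, the colony-stimulating factor receptor, was measured by 3 probe sets whose differences were not equal. The probe set 1423593_a_at had signals of 4918, 5269 and 4882 in METH 1 to 3, 4451, 5084 and 4619 in MPTP 1 to 3, and 4241, 3924 and 4420.2 in Control 1 to 3. Every toxin array lay above every saline array, with MPTP 1 only just above Control 3. Its log2 fold change was 0.26 ± 0.095 in METH against Control (limma adjusted p = 0.529) and 0.17 ± 0.095 in MPTP against Control (limma adjusted p = 0.874).

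The Csf1r probe set 1419873_s_at had signals of 7636, 7249 and 4584 in METH 1 to 3, 6813, 5416 and 5248 in MPTP 1 to 3, and 5052, 4098 and 5024 in Control 1 to 3. METH 3 lay within the saline range and METH 1 and METH 2 lay well above it. The log2 fold changes were 0.43 ± 0.19 in METH and 0.30 ± 0.19 in MPTP against Control. The third, 1419872_at, had signals of 16646 to 18532 in METH, 15875 to 18076 in MPTP and 15026 to 17874 in Control, and the groups overlapped. Its log2 fold changes were 0.096 ± 0.10 in METH (95% interval -0.14 to 0.33) and 0.036 ± 0.10 in MPTP against Control (-0.20 to 0.27). Between probe sets of Csf1r the log2 fold change therefore varied by 0.33 in METH and 0.26 in MPTP against Control.

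Cx3cr1, the fractalkine receptor, gave unequal values too. The probe set 1450019_at had signals of 1098, 1136 and 1512 in METH 1 to 3, 1027, 949.97 and 1208 in MPTP 1 to 3, and 1089, 1036 and 666 in Control 1 to 3. The METH arrays lay above the saline arrays, with METH 1 just above Control 1, and MPTP and saline overlapped. Its log2 fold change was 0.44 ± 0.20 in METH against Control (limma adjusted p = 0.569) and 0.22 ± 0.20 in MPTP against Control. The probe set 1450020_at ranged over 4803 to 6173 in METH, 3872 to 6558 in MPTP and 4628 to 5720 in Control. It had log2 fold changes of 0.11 ± 0.19 and 0.015 ± 0.19 in METH and MPTP against Control, with 95% intervals of -0.31 to 0.53 and -0.40 to 0.43.

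Cd14, the lipopolysaccharide co-receptor, had signals of 1723, 1780.3 and 1317 in METH 1 to 3, 1401, 1511 and 1758 in MPTP 1 to 3, and 1376, 1397 and 1406 in Control 1 to 3. The saline arrays lay close together, whereas the toxin arrays spread above, into and below that range, with METH 3 the lowest of the 9. Its mean signal was 1607 ± 252 in METH, 1556 ± 183 in MPTP and 1393 ± 15.4 in Control (SD, n = 3 each), with log2 fold changes of 0.19 ± 0.13 and 0.15 ± 0.13 in METH and MPTP against Control.

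Ly86, the partner of Cd180, had signals of 4189, 2998 and 3449 in METH 1 to 3, 3491, 3059.8 and 4215 in MPTP 1 to 3, and 2514, 2052 and 2916 in Control 1 to 3. All toxin arrays lay above all saline arrays, with METH 2 next to Control 3. The log2 fold change was 0.51 ± 0.17 in METH against Control (1.42-fold, limma adjusted p = 0.518, unadjusted p = 0.0149) and 0.53 ± 0.17 in MPTP against Control (1.44-fold, limma adjusted p = 0.857, unadjusted p = 0.0124). These were the largest values of the set, with 95% intervals of 0.12 to 0.89 and 0.14 to 0.91.

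Aif1 had signals of 961, 769 and 911 in METH 1 to 3, 772, 786 and 603 in MPTP 1 to 3, and 718, 657 and 693 in Control 1 to 3. Every METH array lay above every saline array, while MPTP 3 was the lowest of the 9. The log2 fold change was 0.35 ± 0.13 in METH against Control (limma adjusted p = 0.529, unadjusted p = 0.0224) and 0.055 ± 0.13 in MPTP against Control (limma adjusted p = 0.974). The log2 difference of METH against MPTP was 0.29 ± 0.13 (95% interval 0.0058 to 0.58), with an unadjusted p of 0.0463 and an adjusted p of 1 in limma.

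**Figure D3:**
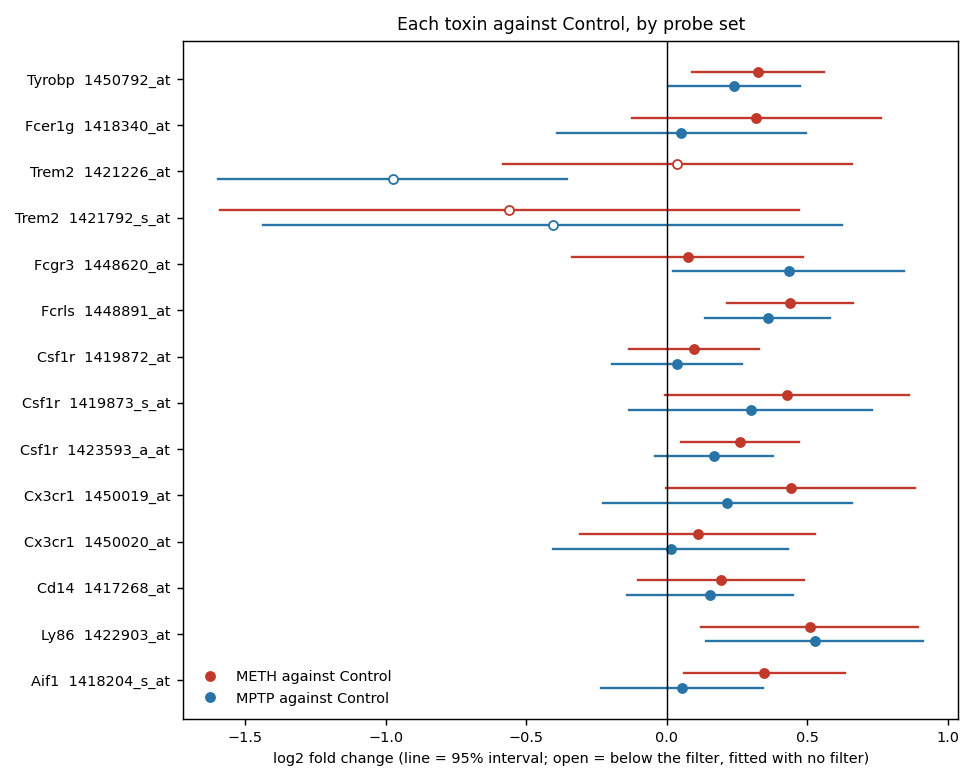
Log2 fold change (x axis) of each receptor and adaptor probe set in METH (upper point) and MPTP (lower point) against Control, with its 95% interval from limma; open points are Trem2, fitted with no filter. All 12 filled points of each toxin lie right of 0. Under another scaling Fcgr3 in METH and Aif1, 1 Csf1r and 1 Cx3cr1 probe set in MPTP did not. Without Control 2, Fcgr3 in METH, and Fcer1g and those Csf1r and Cx3cr1 probe sets in MPTP, did not either. The intervals, not adjusted for multiple testing, exclude 0 in both toxins for Fcrls, Ly86 and Tyrobp. That of Tyrobp in MPTP does so only just, starting at 0.0049. Trem2 1421226_at lies at -0.98 in MPTP.

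In METH against Control, 0 of the 12 tested probe sets passed an adjusted p of 0.05 in limma, where 0.0147% of all probe sets did, both of them Gfap. An unadjusted p under 0.05 with a higher value was found for 5 of the 12 (Fcrls, Tyrobp, Ly86, Csf1r 1423593_a_at and Aif1), against 5.77% of all probe sets, and with a lower value for 0 (3.01%). All METH arrays lay above all saline arrays for 6 of the 12, which adds Cx3cr1 1450019_at to these, against 6.95% of all probe sets. A positive log2 fold change was found for 12 of the 12, against 52.8%, although that of Fcgr3 was negative after quantile (-0.044) or cyclic loess (-0.020) normalization. The median log2 fold change of the 12 was 0.32, beside 0.012 over all probe sets tested. Over all 14 with no filter it was 0.29, beside 0.035.

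In MPTP against Control, 0 of the 12 passed in limma, where 0.0147% of all probe sets did, again Gfap. An unadjusted p under 0.05 with a higher value was found for 4 of the 12 (Fcrls, Ly86, Fcgr3 and Tyrobp), against 3.71% of all probe sets, and with a lower value for 0 (1.82%). All MPTP arrays lay above all saline arrays for 5 of the 12 (Tyrobp, Fcrls, Ly86 and 2 Csf1r probe sets), against 6.2%. A positive log2 fold change was found for 12 of the 12, against 52.2%, although that of Aif1 was negative after quantile (-0.018) or cyclic loess (-0.0080) normalization. With centred arrays, those of Csf1r 1419872_at (-0.0039) and Cx3cr1 1450020_at (-0.025) were negative. The median of the 12 was 0.19, beside 0.0079 over all probe sets tested, and that of all 14 with no filter was 0.16, beside 0.016. Probe sets of 1 gene are not independent, and the comparisons share the saline arrays. Control 2 had the lowest of the 9 signals for 6 of the 12, a count whose share over all probe sets was not computed. Without Control 2 the medians were 0.25 in METH and 0.16 in MPTP against Control. Leaving it out also turned some signs. Fcer1g (-0.024), Csf1r 1419872_at (-0.018) and Cx3cr1 1450020_at (-0.068) were then negative in MPTP, and Fcgr3 (-0.094) in METH.

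The mean of both toxin groups against saline, which uses the same arrays, gave 0 of 12 probe sets past the test in limma (0.0147% of all probe sets). An unadjusted p under 0.05 with a higher value was found for 4 of the 12, against 5.73%, and with a lower value for 0 (2.88%). A positive log2 fold change was found for 12 of the 12, against 52.9%. All 6 toxin arrays lay above all 3 saline arrays for Tyrobp, Fcrls, Ly86 and Csf1r 1423593_a_at, 4 of the 12, against 2.49%. Fcrls had a log2 fold change of 0.40 ± 0.087 (limma adjusted p = 0.343, unadjusted p = 0.000972), Ly86 of 0.52 ± 0.15 (adjusted p = 0.476) and Tyrobp of 0.28 ± 0.091 (adjusted p = 0.505). Gfap on the same arrays had 1.13 ± 0.11 and 1.27 ± 0.11 for its probe sets, with adjusted p-values of 0.0106 and 0.00906.

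METH and MPTP mice did not differ past the test for any of the 12 probe sets (0 of 12, limma adjusted p = 1 for each, where 0% of all probe sets passed). At an unadjusted p under 0.05, 1 of the 12 was higher in METH (Aif1, against 1.73% of all probe sets) and 0 were lower (1.07%). The METH arrays lay below the MPTP arrays for 1 of the 12 (Fcgr3, against 3.56%) and above them for 0 (3.69%). The log2 difference was above 0 for 10 of the 12 (49.6% of all probe sets) and ran from -0.36 for Fcgr3 to 0.29 for Aif1. For Fcrls the difference was 0.079 with a 95% interval of -0.14 to 0.30, and for Tyrobp 0.086 with -0.15 to 0.32. With no filter, Trem2 1421226_at had the largest difference, 1.01 ± 0.27 (unadjusted p = 0.00577, limma adjusted p = 1), and all METH arrays lay above all MPTP arrays, as for 4.47% of all probe sets. An unadjusted p under 0.05 with a higher METH value was found for 2.11% of them.

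Averaged over the 9 tested genes, with the brightest probe set of each, the log2 signal relative to the 9-array mean was 0.17, 0.082 and 0.072 in METH 1, 2 and 3. It was 0.094, 0.057 and -0.0033 in MPTP 1, 2 and 3, and -0.073, -0.28 and -0.12 in Control 1, 2 and 3. The highest of the 9 signals was on a METH array for 9 of the 12 tested probe sets, on an MPTP array for 3 and on a saline array for 0. The shares over all probe sets were not computed, so these counts have no background to be read against. The 17 tested genes of a list of other microglia markers gave 0.099, 0.049 and 0.085 in METH 1 to 3, 0.029, 0.053 and 0.12 in MPTP 1 to 3, and -0.077, -0.18 and -0.18 in Control 1 to 3. Both gene groups had all toxin arrays above all saline arrays and Control 2 lowest.

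**Figure D4:**
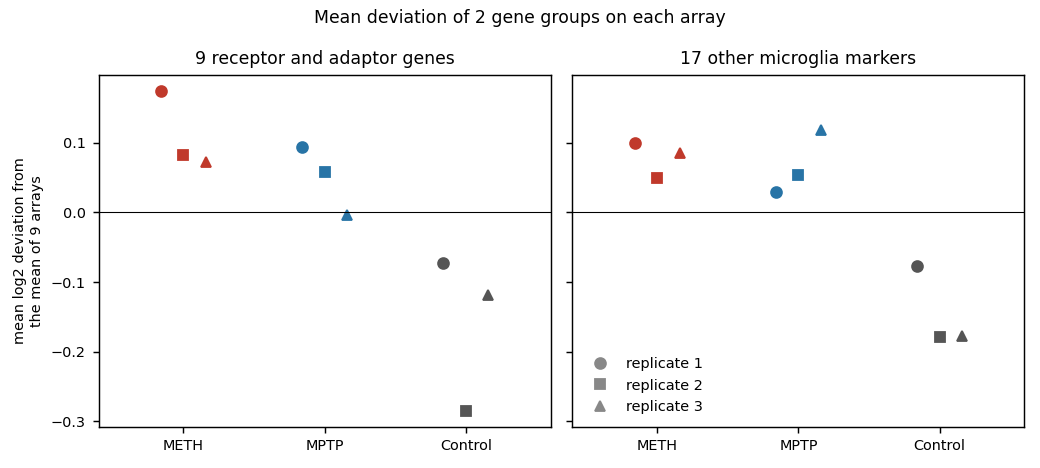
Mean log2 signal relative to the 9-array mean (y axis) of the 9 tested receptor and adaptor genes (left) and of 17 other microglia markers (right) in METH, MPTP and Control mice, 1 symbol per array. Control 2 is lowest on the left at -0.28, and on the right Control 2 and Control 3 lie together at -0.18.

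The other microglia markers, none of which is a receptor or adaptor above, had 14 of 17 tested genes with a positive log2 fold change in METH against Control, against 50.3% of all 7964 genes tested (median 0.21, beside 0.00092), and 15 of 17 in MPTP against Control, against 51.8% (median 0.22, beside 0.0064). None passed the test in limma (0 of 17 in each, where 0.0126% of all genes passed), and 5 in METH and 4 in MPTP had an unadjusted p under 0.05 with a higher value, against 4.95% and 3.3% of all genes. The METH arrays lay above the saline arrays for 6 of 17 (6.48% of all genes) and the MPTP arrays for 7 of 17 (6.13%). Ctss, a lysosomal protease gene, had 0.43 ± 0.11 in METH and 0.35 ± 0.11 in MPTP against Control, and Entpd1, the ATP-degrading ectoenzyme CD39, had 0.34 ± 0.12 in both. Cd53, a tetraspanin, had 0.21 ± 0.097 in METH and 0.30 ± 0.097 in MPTP. Selplg, a selectin ligand, had 0.35 ± 0.14 in METH but -0.096 ± 0.14 in MPTP. The negative values in METH were those of Tmem119 (-0.019), Mertk (-0.044) and Rgs10 (-0.039), and in MPTP those of Selplg and Mertk (-0.026).

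Ligands of the receptors were measured for 7 tested genes of 12 listed, of which 2 in METH and 3 in MPTP had positive values and none passed. For this and the following lists, 50.3% of all 7964 genes were positive in METH and 51.8% in MPTP against Control. All arrays lay above saline for 6.48% of all genes in METH and 6.13% in MPTP. The shares with all arrays below saline are not given, so such cases have no background to be read against. Apoe and Clu, lipoprotein components that Trem2 binds, had 0.26 ± 0.099 and 0.24 ± 0.093 in METH, and 0.22 ± 0.099 and 0.27 ± 0.093 in MPTP against Control. Il34, a neuronal ligand of Csf1r, had signals of 2312, 2240.2 and 2178 in METH 1 to 3 and 1971, 2186 and 2950 in MPTP 1 to 3, against 2526, 2602 and 2535 in Control 1 to 3. All its METH arrays lay below saline, at -0.19 ± 0.14. Lbp, which delivers lipopolysaccharide to Cd14, had -0.56 ± 0.29 in MPTP.

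Among 8 tested genes of 18 listed for ITAM signalling downstream of the adaptors, 5 were positive in METH (median 0.096) and 4 in MPTP (median -0.033), and none passed. Plcg2, the phospholipase that Syk activates, had 0.55 ± 0.23 in METH and 0.32 ± 0.23 in MPTP against Control. Cbl, a ubiquitin ligase that limits ITAM signals, had -0.17 ± 0.087 and -0.16 ± 0.087, with all arrays of both toxins below saline. Syk itself was below the filter, with signals of 154, 189 and 360 in METH, 139, 345 and 148 in MPTP and 172, 395 and 114 in Control. Other adaptors and partner receptors had 7 of 8 positive in METH (median 0.25) and 5 of 8 in MPTP (median 0.058), none past the test. Treml1, of the Trem family, had 0.25 ± 0.12 in METH and 0.15 ± 0.12 in MPTP, and the inhibitory sialic acid receptor Cd33 had 0.25 ± 0.13 and 0.11 ± 0.13. In the Fc receptor family, 3 genes were tested and none passed: the inhibitory Fcgr2b had 0.20 ± 0.24 in METH and 0.24 ± 0.24 in MPTP, and Fcgr4 had 0.0080 ± 0.32 and 0.19 ± 0.32.

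The complexes around Cd14 and Ly86 had 7 of 7 tested genes positive in both comparisons, of 21 listed, with medians of 0.34 in METH and 0.19 in MPTP against Control, and none passed. Cd180, the receptor to which Ly86 binds, had signals of 1208, 1384 and 980 in METH 1 to 3, 1009, 847 and 1132 in MPTP 1 to 3, and 754, 1020 and 849 in Control 1 to 3. Its log2 fold changes were 0.44 ± 0.16 and 0.19 ± 0.16, with overlap in both. Myd88, the adaptor of most Toll-like receptors, had 0.55 ± 0.21 and 0.46 ± 0.21, and Traf6, a ubiquitin ligase downstream of it, had 0.34 ± 0.14 and 0.32 ± 0.14, with all toxin arrays above saline for Traf6. Tlr4 and Ly96, the receptor that takes lipopolysaccharide from Cd14 and its subunit MD-2, were below the filter.

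Transcription factors of the myeloid lineage had 2 of 6 tested genes positive in METH (median -0.10) and 3 of 6 in MPTP (median 0.053), and none passed. Irf5, an interferon regulatory factor of activated macrophages, had 0.49 ± 0.15 in METH and 0.42 ± 0.15 in MPTP against Control, with all toxin arrays above saline. Spi1, which encodes PU.1, had signals of 635, 1176 and 618 in METH 1 to 3, 917, 844 and 907 in MPTP 1 to 3, and 1036, 880.1 and 817 in Control 1 to 3, at -0.23 ± 0.22 in METH. Of 20 inflammatory cytokines and effectors, 18 were below the filter, with signals of 6.79 to 951, and neither Ccl4 nor Ptgs2 passed. Il1b, 1 of these, had signals of 826, 782 and 846 in METH, 589, 556 and 709 in MPTP and 723, 640.25 and 779.9 in Control. Genes that microglia switch on around amyloid plaques had 8 of 10 positive in both comparisons (medians 0.097 and 0.12), none past the test, with Ctsz, a lysosomal cathepsin, at 0.51 ± 0.14 in METH and 0.30 ± 0.14 in MPTP.

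**Figure D5:**
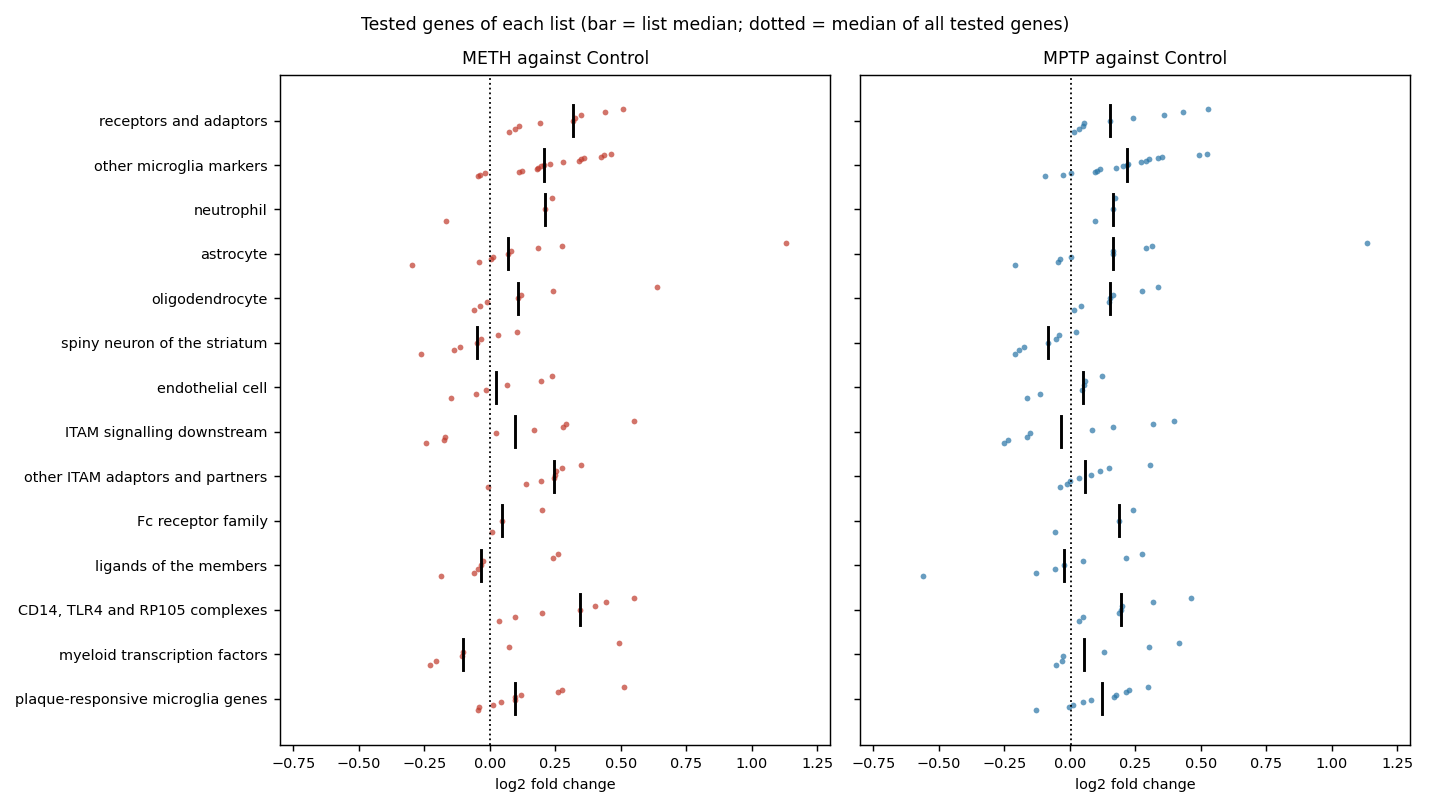
Log2 fold change (x axis) of the tested genes of each list in METH (left) and MPTP (right) against Control, 1 point per gene, with a bar at the list median and a dotted line at the median of all 7964 tested genes; lists with fewer than 3 tested genes are not drawn. The receptors and adaptors have medians of 0.32 and 0.15 with 1 probe set per gene, the CD14, TLR4 and RP105 complexes 0.34 and 0.19, and the single astrocyte point past 1 is Gfap.

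Markers of other cell types were measured beside the receptors and adaptors, which only some of those cell types carry. Summed signals of 7 perivascular macrophage markers, all below the filter, were 2739.7 to 3585 in METH, 2657 to 3162 in MPTP and 2024 to 3092 in Control. Among them Cd163 and Lyve1 ranged over 51.3 to 311. Mrc1 was brighter, at 504 to 1022 in METH, 579 to 672 in MPTP and 274 to 573 in Control. Cbr2 leaned the other way, at 51.9 to 220 in METH, 63.0 to 131 in MPTP and 91.7 to 316 in Control. Of 6 blood monocyte markers 1 was past the filter, Lyz2, which microglia can also express, at 0.41 ± 0.17 in METH and 0.60 ± 0.17 in MPTP. The monocyte receptor Ccr2 had signals of 19.7 to 208 in METH, 157 to 243 in MPTP and 47.5 to 233 in Control, and the sum over the 6 was 3104 to 3893, 3520.3 to 4083 and 2556 to 3571 in METH, MPTP and Control. Of 4 red cell markers, Hbb-b2, a haemoglobin gene, was past the filter at 0.69 ± 0.23 in METH and 0.57 ± 0.23 in MPTP. The summed red cell signals overlapped, at 1961 to 2403 in METH, 1722 to 2407 in MPTP and 1875 to 2309 in Control. Sums over 7 neutrophil and 9 lymphocyte markers overlapped between groups as well. Astrocyte markers summed over 9 genes, Gfap among them, to 97572 to 104710 in METH, 99301 to 107970 in MPTP and 91067 to 96322 in Control. The 3 genes listed as cortical neuron markers summed to 23054 to 28440, 23590 to 27388 and 30264 to 35365 in METH, MPTP and Control. Neither of these sums overlapped between toxin groups and saline, but an astrocyte sum without Gfap was not computed. Nrgn made up most of the cortical sum, at 22785 to 27408 in METH, 22894 to 26724 in MPTP and 29260 to 34832 in Control. Whether its signal came from cortical tissue was not tested. Tbr1 and Neurod6, both below the filter, overlapped between groups. Gfap, at 10957 to 13823 in METH, 11350 to 13596 in MPTP and 5020.2 to 6436 in Control, was the 1 astrocyte gene past the test. Of the 9 astrocyte genes, 7 were positive in METH (median 0.070) and 6 in MPTP (median 0.17). Aqp4 had 0.28 ± 0.082 in METH and 0.31 ± 0.082 in MPTP against Control, with all toxin arrays above saline. S100b had 0.18 ± 0.13 in METH and 0.29 ± 0.13 in MPTP. The glutamate transporter gene Slc1a3 had -0.30 ± 0.20 in METH and -0.21 ± 0.20 in MPTP. Of 7 oligodendrocyte markers, 4 were positive in METH (median 0.11) and 7 in MPTP (median 0.16), and none passed. Sox10, which drives oligodendrocyte differentiation, had 0.64 ± 0.10 in METH (limma adjusted p = 0.256, unadjusted p = 8.23e-05) and 0.34 ± 0.10 in MPTP (limma adjusted p = 0.806), with all toxin arrays above saline. Choroid plexus markers varied most, over 10264 to 53574 in METH, 4474 to 35615 in MPTP and 13450 to 69116 in Control. The part of these cells in the receptor and adaptor values was not tested.

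Over the 9 arrays, the genes whose deviations lay closest to that of the receptors and adaptors were Irf3, Col6a2, Sh2b1, C1qa and Ddr1, among 7955 other genes. Their root mean square distances were 0.038 to 0.059 log2 units, against a median of 0.196 over all other genes. They were picked as the closest, so this gap is set by the selection. C1qa, a complement subunit made by microglia, was at 0.055, with log2 fold changes of 0.18 in METH and 0.22 in MPTP against Control. Among the receptors and adaptors, Tyrobp was closest to their mean at 0.049, and Fcgr3 was farthest at 0.254, though each contributes to that mean. Cx3cr1 (0.207), Ly86 (0.224), Fcer1g (0.242) and Fcgr3 lay farther from it than the median of all other genes. The remaining tested receptors and adaptors lay closer than that median.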

How the data were processed

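Striatal RNA of 9 mice was measured on single-colour arrays, 1 per mouse. The deposited intensity values, 1 per probe set and array, are linear (0.342 to 84013), and all arrays share 1 trimmed mean. Per the submitters' processing notes RMA was used (version not given), yet these values lack its usual form, so how they were summarised is unsettled. Genes were named from the platform annotation: 20380 probe sets had 1 symbol, 691 several, 1555 none listed and 64 were controls. RefSeq gene IDs (GRCm38.p6) matched 20351, and 0 symbols changed.

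Values were put on the log2 scale with no pseudocount and no further normalization. The filter kept probe sets averaging at least 9.53, the 40th percentile. All 9 arrays entered a single lmFit and eBayes model of the groups (limma 3.58.1, R 4.3.3; 6 residual and 3.94 prior degrees of freedom). P-values are two-sided and Benjamini-Hochberg adjusted over the 13614 probe sets tested, with 0.05 as the threshold. Lists were read at 1 probe set per gene, that of highest mean, with up to 3 genes of smallest p named per list and comparison, and the 5 genes closest in pattern. Il1b, Syk, Tlr4, Ly96, Ccr2, Cd163, Lyve1, Mrc1, Cbr2, Tbr1 and Neurod6, all below the filter, were also named after their values were seen. So were Tmem119, Mertk and Rgs10, which were past it. The members and lists were chosen with earlier results of these data known. The fit was tested on simulated data. Precision is limited by the number of arrays. An exact permutation test of 3 against 3 reaches at lowest p = 0.1 and was not run. Alternatives were quantile, cyclic loess and median-centring normalization, no filter or the 60th percentile, 1 or the mean probe set per gene, no cross-hybridising probe sets, a pseudocount of 100, a trended and robust eBayes, array weights, only the groups compared, the replicate number as a block, and leaving out each array.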

Additional observations from a re-analysis of the deposited data

How the results depend on the processing

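None of the 12 probe sets passed the test under any alternative run, in any of the 4 comparisons, and the smallest adjusted p against saline was 0.177, for Fcrls in both toxins against Control with array weights. With all arrays kept, the median log2 fold change of the set was 0.26 to 0.33 in METH against Control, 0.15 to 0.24 in MPTP against Control, 0.065 to 0.10 in METH against MPTP and 0.18 to 0.28 in both toxins against Control. Centring arrays on their medians gave 0.26, 0.15, 0.065 and 0.18, and moved the median of all probe sets to -0.052 in METH and -0.032 in MPTP against Control. Without 1 array the medians were 0.25 to 0.36, 0.16 to 0.23, 0.058 to 0.11 and 0.17 to 0.32, lowest without Control 2 in the 3 comparisons against Control and highest without Control 1. Same-numbered arrays of different groups had correlations of deviations of -0.13 to 0.055, and differently numbered arrays of -0.12 to 0.12. No pairing by number was seen, but with 3 arrays per group this check cannot exclude it. The replicate number as a block left the medians at 0.32, 0.19, 0.089 and 0.23 and changed no call of the set. The count of all probe sets past the test was 2 in METH and in MPTP against Control, and 0 in both with that block, with centred arrays and with _x_at and _s_at probe sets left out. With no filter and with only the groups compared it was 1 in METH and 0 in MPTP. Without 1 array it was 0 in MPTP in 9 of 9 runs, and 0 in METH in 7 of 9, with 1 in the runs without MPTP 1 or MPTP 2. Signs turned in 37 of 1094 single-probe-set values, of 13 results, and the cause was not tested. In METH against Control, Trem2 1421226_at had -0.077 with quantile normalization, -0.083 with cyclic loess, -0.025 with centred arrays and -0.061 with array weights (-0.19 to 0.23 without 1 array), and Fcgr3 had -0.044 with quantile normalization and -0.020 with cyclic loess (-0.094 to 0.22). In MPTP against Control, Csf1r 1419872_at had -0.0039 with centred arrays (-0.024 to 0.11 without 1 array). Cx3cr1 1450020_at had -0.025 with centred arrays and -0.0098 with array weights (-0.15 to 0.23), and Aif1 had -0.018 with quantile normalization and -0.0080 with cyclic loess (-0.013 to 0.18). Without 1 array, Fcer1g ran from -0.080 to 0.19 and Cx3cr1 1450019_at from -0.0086 to 0.35. In METH against MPTP, Ly86 had 0.078 with array weights (-0.15 to 0.10 without 1 array), and Trem2 1421792_s_at ran from -0.52 to 0.10, Csf1r 1419873_s_at from -0.0051 to 0.36, Cx3cr1 1450020_at from -0.12 to 0.26 and Cd14 from -0.040 to 0.18. In both toxins against Control, Cx3cr1 1450020_at ran from -0.020 to 0.17. Low signal limits the 2 Trem2 probe sets most.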
